A study of Cicer arietinum with 24 samples.

Results

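A total of 10 genes had high transcript levels in whole chickpea seeds from S1 to S4 stages and low levels from S5 stage onwards, with low levels in leaf. They were found among 23943 genes with a row of their own in the deposited expression values, and all 10 are described here. Expression is given as FPKM, in which fragment numbers are divided by transcript length and by library size, so levels of different genes can be set side by side. A gene was included when its smallest value over S1 to S4 was at least 20 FPKM, its largest value over S5 to S7 was at most 10% of that smallest value, and leaf was under 20 FPKM. In addition, the largest value over S1 to S4 had to be under 2 times the second largest. This keeps out genes with a single sharp peak. S2 also had to be under 2 times the larger of S3 and S4, which keeps out genes much lower at both stages after S2. The genes were thus chosen by all 8 of their own values. The levels are therefore a description of the genes and no test was made of them.

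The samples were whole seeds of the cultivar Himchana 1, a small-seeded chickpea, at 7 stages of development (S1 to S7), and leaves taken from plants bearing seeds in mid-maturation. The plants were grown in the field, and no genotype change or treatment is part of the design. In the paper S1, S2 and S3 are early-, mid- and late-embryogenesis and S5 and S7 are mid- and late-maturation, whereas S4 and S6 lie between them and are given no name in the text used here. There were 3 replicates for each stage and for leaf (24 samples), but the deposited values hold 1 merged value for each, so no replicate error or p-value can be given and every difference describes these 8 merged values only. Since whole seeds were used, fewer cells of a type and less RNA per cell cannot be told apart.

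During embryogenesis the cells of a legume seed divide and the embryo takes its form within seed coat and endosperm. In maturation, division gives way to cell expansion and endoreduplication, the cotyledons fill with storage protein and starch, and the seed then dries. Transcripts for division and patterning are known to decline over this change, whereas those for storage proteins and for desiccation tolerance come up after it. None of the 10 identifiers matched a table of 29938 RefSeq genes of chickpea. The same held for all 23943 identifiers, so the lack of a match is not particular to the 10 genes. Names for the 10 were not found elsewhere. They are called by their identifiers, no role is given beyond the process lists below, and tissue markers could not be looked up for the same reason.

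The 75th percentile over all rows lay between 10.7 FPKM at S7 and 11.7 FPKM at S3. The median over the 23943 genes was 1.69 FPKM at S1, 2.13 at S2, 1.85 at S3 and 1.89 at S4, and then 1.41 at S5, 0.460 at S6, 0.360 at S7 and 1.27 in leaf, lowest at S6 and S7. The number of the 23943 genes listed at 0 was 6144 to 6763 from S1 to S4, 8290 at S5, 8553 at S6, 8727 at S7 and 7140 in leaf. Ca_28211, the highest row at each of S1 to S6, took 31.5% of all FPKM at S5, against 2.02% at S4. Its share was 1.92% at S1, 1.13% at S2, 13.6% at S3 and 7.77% at S6. At S7 the highest row was Ca_06877, with 13.6%. The part of these library differences in the values of the 10 genes was not tested, other than by the rescaling given in the closing section.

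Of the 10 genes, 4 had their highest value at S3 stage, and 2 each at S1, S2 and S4. The highest value of any of them over S5 to S7 (10.004 FPKM) lay below the lowest of any of them over S1 to S4 (27.2 FPKM). Their median was 81.3 FPKM at S1, 101 at S2, 116 at S3 and 110 at S4, and then 1.96 at S5, 0.0972 at S6, 0.115 at S7 and 2.28 in leaf. None was listed at 0 at S5, and 6 of the 10 had at least 1 FPKM there, as had 12496 of all 23943 genes. At S6 and at S7 none of the 10 reached 1 FPKM, and 4 were listed at 0 at both stages. Over all genes, 10926 reached 1 FPKM at S6 and 10623 at S7, and 8553 and 8727 were listed at 0.

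**Figure D1:**
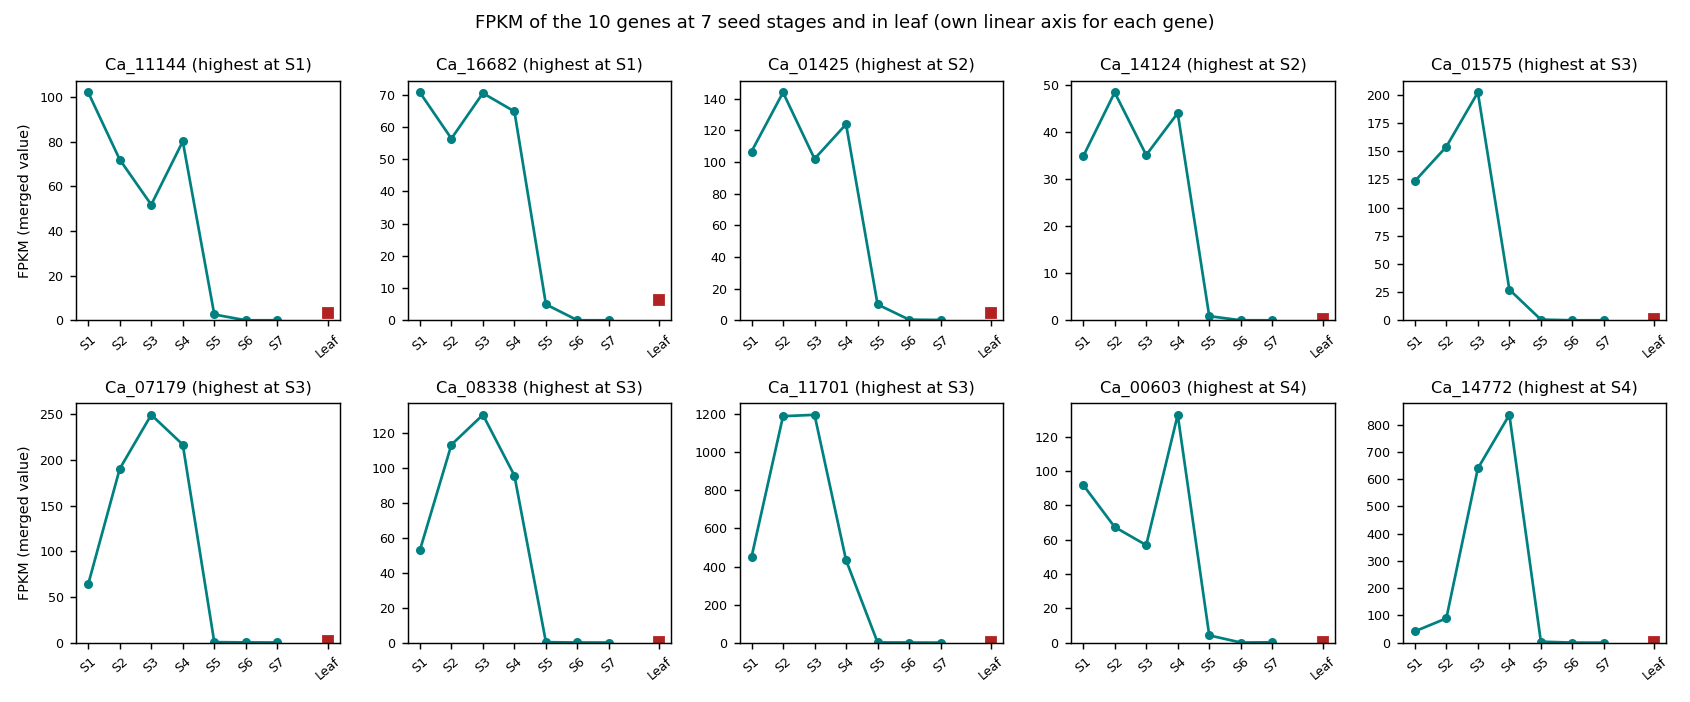
FPKM (y axis, linear, its own range for each gene) of the 10 genes at seed stages S1 to S7 (circles, joined by lines) and in leaf (squares), 1 merged value each. Panels are ordered by the stage of the highest value. In every panel the points of S5, S6 and S7 lie at or near the bottom, and the shape over S1 to S4 differs between genes, from nearly flat in Ca_16682 to a 20.2-fold range in Ca_14772.

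Ca_11701 had the highest level of the 10 genes at S1, S2 and S3. Its FPKM was 450 at S1, 1190 at S2, 1197 at S3 and 433 at S4, and then 1.33 at S5, 0.772 at S6, 0.153 at S7 and 3.85 in leaf. The S2 and S3 stages stood together at the top, and S4 was already 2.76-fold lower than S3. At S2 it was the gene of rank 35 from the top among the 23943 genes, and at S5 its rank was 12067. The S5 value was 325-fold lower than that of S4. On the log2(FPKM + 1) scale, which understates changes of low values, the change from S4 to S5 was -7.54, the most negative of the 10 genes.

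Ca_07179 and Ca_08338 had a shape much like each other, lowest at S1, highest at S3 and slightly lower at S4. Ca_07179 had 64.1 FPKM at S1, 190 at S2, 250 at S3 and 217 at S4, and then 0.605 at S5, 0.285 at S6, 0.213 at S7 and 1.83 in leaf. Ca_08338 had 53.0 FPKM at S1, 114 at S2, 131 at S3 and 95.8 at S4, and then 0.275 at S5, 0.110 at S6, 0.0770 at S7 and 0.548 in leaf. At S4 both were still close to their S3 level, which was 1.15-fold and 1.36-fold higher. At S5 the level was lower than at S4 by 358-fold in Ca_07179 and 348-fold in Ca_08338, the widest of the 10 genes as plain ratios. With Ca_11701 and Ca_14772 they were the genes that kept under 1% of their S4 value at S5.

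Ca_01575 was highest at S3 as well and had the widest difference between S4 and S3 of the 10 genes. Its FPKM was 124 at S1, 154 at S2, 202 at S3 and 27.2 at S4 and 0.606 at S5, it was listed at 0 at S6 and S7, and leaf had 1.05. The S4 value was 7.43-fold lower than that of S3, and the S5 value was 45.0-fold lower than that of S4. With 27.2 FPKM at S4 it lay closest of the 10 genes to the minimum of 20 FPKM.

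Ca_14772 had the widest range over S1 to S4 and the highest level of the 10 genes at S4. It had 41.4 FPKM at S1, 89.3 at S2, 639 at S3 and 836 at S4, and then 3.68 at S5, 0.184 at S6, 0.173 at S7 and 2.72 in leaf. The value at S4 was 20.2-fold higher than at S1, with the widest step between S2 and S3 (log2 change of 2.83). It thus stood at its highest level in the last stage before the loss, where it ranked 78 from the top, and at S5 it was 227-fold lower. Its rank at S5 was 10064.

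Ca_00603 was the other gene with its highest value at S4, but it came there from a decline. Its FPKM was 91.9 at S1, 67.4 at S2, 56.8 at S3 and 133 at S4, and then 4.27 at S5, 0.0846 at S6, 0.204 at S7 and 0.428 in leaf. The S4 value was 2.34-fold higher than that of S3 and the S5 value 31.1-fold lower than that of S4. It was the only 1 of the 10 genes with a higher value at S7 than at S6, and both of these values were under 1 FPKM and of unknown precision.

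Ca_01425 kept the most of its level at S5. It had 107 FPKM at S1, 144 at S2, 102 at S3 and 124 at S4, and then 10.004 at S5, 0.392 at S6, 0.202 at S7 and 4.38 in leaf. The 4 early values lay within a 1.41-fold range, and S2 and S4 were above S1 and S3. At S5 it had 8.08% of its S4 value left, a 12.4-fold lower level, and the loss went on from S5 to S6, which differed 25.5-fold.

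Lists of genes assigned to biological processes by gene ontology terms, or to QTLs (regions of the genome tied to seed size/weight), were taken from the study. A total of 3 of the 10 genes were on these lists, and 7 were on none. Of the 608 genes that met every limit but the one on S5 to S7, 13.7% were on a list, and of all 23943 genes 8.90%. With 10 genes, nothing is read from this difference. These were Ca_14124 (cell cycle, the genes of DNA replication, mitosis and their control), Ca_16682 (differentiation) and Ca_11144 (QTLs). All 3 had rather even values over S1 to S4, with the largest under 2 times the smallest, and all 3 were listed at 0 at S6 and S7.

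The cell cycle gene Ca_14124 had the lowest level of the 10 genes at S1 to S3. Its FPKM was 34.9 at S1, 48.5 at S2, 35.2 at S3 and 44.1 at S4, and then 0.878 at S5 and 0.165 in leaf. The stages S2 and S4 stood above S1 and S3, as in Ca_01425. The S5 value was 50.2-fold lower than that of S4, and the smallest early value was 212-fold higher than leaf, the widest distance from leaf among the 10 genes.

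The differentiation gene Ca_16682 was the most even of all. It had 70.7 FPKM at S1, 56.3 at S2, 70.4 at S3 and 64.8 at S4, and then 4.92 at S5 and 6.42 in leaf, a 1.25-fold range over S1 to S4. Its level at S5 was 13.2-fold lower than at S4, and it had the highest leaf value of the 10 genes. The smallest early value was 8.78-fold higher than leaf, the least distance among them.

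The QTL-associated gene Ca_11144 was lower at each of S2 and S3 than the stage before, and higher again at S4. It had 102 FPKM at S1, 72.1 at S2, 51.8 at S3 and 80.2 at S4, and then 2.59 at S5 and 3.35 in leaf. Its S5 value was 31.0-fold lower than that of S4. The S4 value was 1.55-fold higher than that of S3, so S1 and S4 stood at the top and S3 was the lowest of the early stages. Ca_00603 was alike in this, with S4 above S1.

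The lists are of limited use for comparison, since the tables used here hold only those genes of each process that were differentially methylated or differentially expressed, part of them in a comparison with Himchana 1 libraries at S3 and S5. On the cell cycle list, 59 of 337 genes with a row were lower by at least 2-fold at S5 than at S4 on the log2(FPKM + 1) scale and 12 at least 2-fold higher. Over all 23943 genes, 7.6% were lower and 6.97% higher by this measure. The differentiation list had 83 genes lower and 66 higher of 718, the cell growth list 31 and 15 of 176, and the QTLs list 118 and 89 of 891. The grain filling list (18 lower and 23 higher of 167) and the desiccation list (16 lower and 40 higher of 148) had more genes higher than lower at S5. None of the 10 genes was on these, nor on the cell growth list, and as the 10 are 0.0418% of all genes nothing is read from their absence. Of the 40 cell cycle genes with at least 20 FPKM at each of S1 to S4, 1 had its values over S5 to S7 at or below 10% of the smallest early value, and this was Ca_14124. By the same measure it was 1 of 30 on the cell growth list, 3 of 108 on differentiation, 2 of 158 on QTLs, 0 of 32 on grain filling and 0 of 42 on desiccation, against 17 of 3200 (0.531%) over all genes.

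All 10 genes were lower by at least 2-fold at S5 than at S4, which the rule itself fixes. Their log2(FPKM + 1) changes had a median of -4.63 and went from -7.54 to -3.47, beside a median of 0.00 over all 23943 genes. Many of all genes were at or near 0 FPKM and could hardly change on this scale. In the 608 genes that met every limit but the one on S5 to S7, the median was -0.0944. Of these, 18.9% were at least 2-fold lower and 7.89% at least 2-fold higher. Before that step the genes did not move together. From S1 to S2, 4 were at least 2-fold higher (Ca_07179, Ca_08338, Ca_11701 and Ca_14772) and none at least 2-fold lower, against 4.11% and 2.29% of all genes. From S2 to S3, 1 was at least 2-fold higher (Ca_14772) and none at least 2-fold lower, against 4.96% and 5.72% of all genes. From S3 to S4, 1 was at least 2-fold higher (Ca_00603) and 2 at least 2-fold lower (Ca_01575 and Ca_11701), against 2.28% and 2.06% of all genes. Of the 608 genes, 3.95% were at least 2-fold higher and 0.987% lower from S1 to S2. These shares were 8.22% and 2.14% from S2 to S3, and 0.822% and 0.987% from S3 to S4. The rule limits how far a single early stage can stand above the others, and so bears on all these counts.

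The share of the S4 value left at S5 was under 1% in 4 genes. It was 0.279% in Ca_07179, 0.287% in Ca_08338, 0.307% in Ca_11701 and 0.440% in Ca_14772. In the other 6 genes it went from 1.99% in Ca_14124 to 8.08% in Ca_01425, with no gene between. This gap was seen only in the share of S4. In FPKM, the S5 values of Ca_14772 (3.68) and Ca_11701 (1.33) were above those of Ca_01575 (0.606) and Ca_14124 (0.878). All 10 genes were lower at S6 than at S5, and 5 of them at least 2-fold on the log2(FPKM + 1) scale, with a median log2 change of -1.38. On this scale the 4 genes under 1 FPKM at S5 could not differ 2-fold. Over all genes 16.2% were lower by at least 2-fold at S6 than at S5 and 16.4% higher. Of the 608 genes that met every limit but the one on S5 to S7, 51.6% were lower and 19.6% higher by this measure. The median log2 change of these 608 was -1.13, so the further loss at S6 was not particular to the 10 genes. At S6 and S7 all 10 genes were under 1 FPKM, and no change was counted between these stages. As plain values of unknown precision, S7 was 5.04-fold lower than S6 in Ca_11701 and 2.41-fold higher in Ca_00603.

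**Figure D2:**
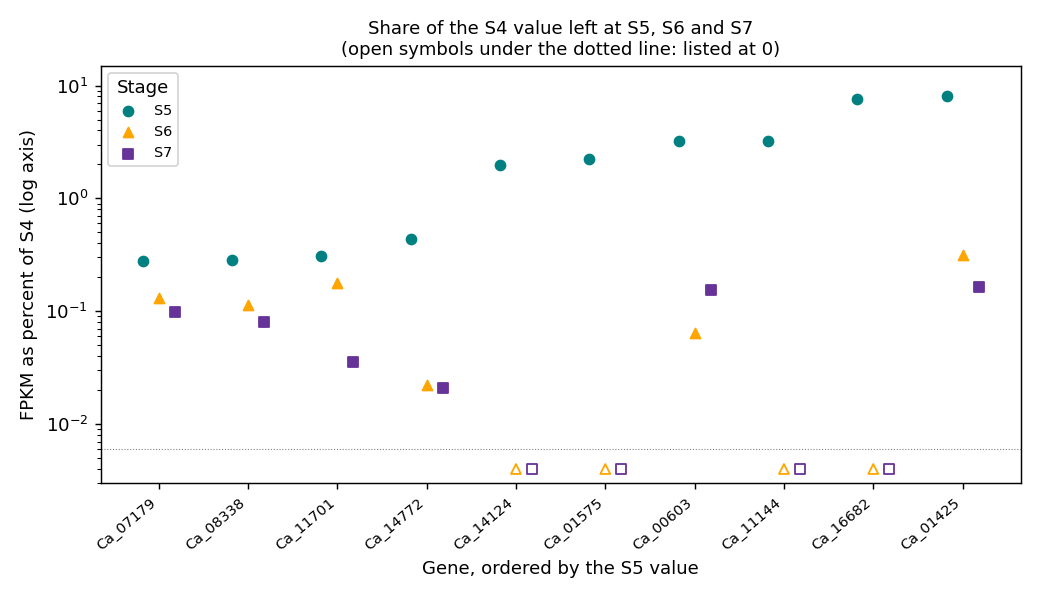
Value at S5 (circles), S6 (triangles) and S7 (squares) as a percentage of the S4 value (y axis, logarithmic) for each of the 10 genes (x axis, ordered by the S5 share). Open symbols under the dotted line stand for values listed at 0, which a logarithmic axis cannot show. The 4 genes on the left had 0.279 to 0.440% left at S5 and the other 6 had 1.99 to 8.08%.

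In leaf the 10 genes had 0.165 to 6.42 FPKM, and 7 of them had at least 1 FPKM, as had 12352 of all 23943 genes. The leaf value was above the S5 value in 6 genes (Ca_01575, Ca_07179, Ca_08338, Ca_11144, Ca_11701 and Ca_16682) and above the S6 and S7 values in all 10. Thus S6 or S7, and not leaf, held the lowest listed value of each of these genes, though these values were under 1 FPKM and of unknown precision. Over all 23943 genes the median was also lower at S6 (0.460 FPKM) and S7 (0.360) than in leaf (1.27). In the 608 genes that met every limit but the one on S5 to S7, the medians were 18.5, 13.6 and 10.5 FPKM in this order. The rule set only an upper limit on leaf, and no gene came near it.

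To see how far these genes stand from others of the same kind, they were set beside the 608 genes that met every limit but the one on S5 to S7. The 10 genes make up 1.62% of the 618 genes together, a share that the rule fixes. Of the 618, 14 genes had a largest late value above 10% and up to 20% of the smallest early value, 49 above 20% and up to 50%, 121 above 50% and up to 100%, and 424 had a late value above their smallest early one. Without the limits on leaf and on the evenness of S1 to S4, 17 of 3200 genes with at least 20 FPKM at S1 to S4 (0.531%) had this loss. As deposited, the opposite pattern was found more often: 82 genes had at least 20 FPKM at each of S5 to S7, at most 10% of that over S1 to S4 and under 20 FPKM in leaf, whereas 15 genes had the loss when the evenness limits were left out. With every library rescaled to the same sum this turned round, with 51 genes of the opposite pattern and 65 with the loss. The counts are not of like strictness, as the loss needs at least 20 FPKM at 4 stages and the opposite pattern at 3.

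**Figure D3:**
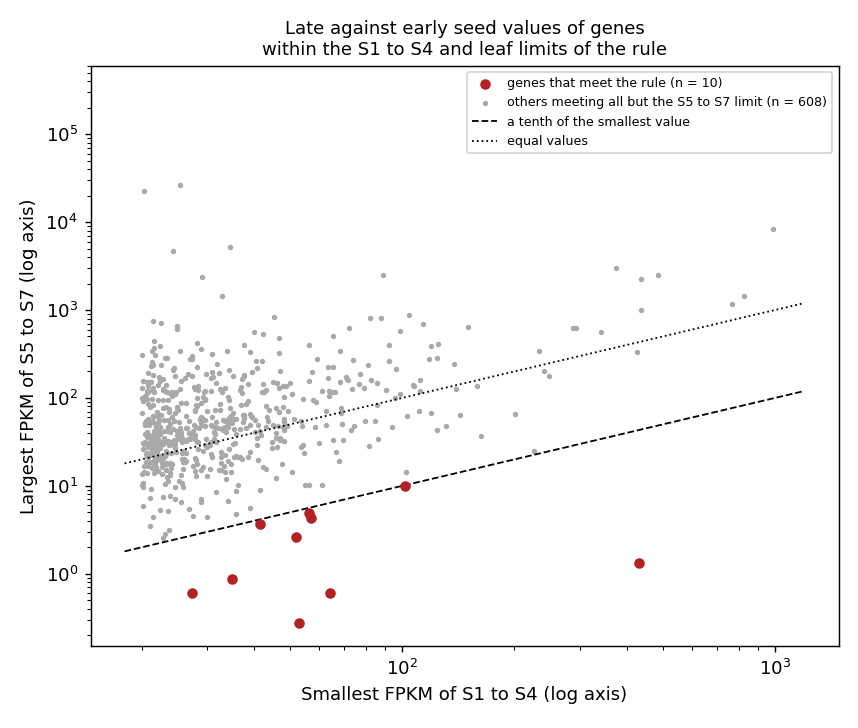
Largest FPKM of S5 to S7 (y axis) against the smallest FPKM of S1 to S4 (x axis), both logarithmic, for the 618 genes that met the other limits, 1 point per gene. The 10 genes that met the rule lie on or under the dashed line of 10%, and 424 of the 618 lie above the dotted line of equal values.

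Of the late stages, S5 was the one at which the limit kept out the most genes. When S5 was not used, 172 of the 618 genes had values at S6 and S7 at or below 10% of their smallest early value. In the 162 of these that were not among the 10, the S5 value had a median of 74.7% of the smallest early value (quartiles 43.7 and 139%), and in 64 of them it was as high as the smallest early value or higher. The rule fixes that these 162 were above 10% at S5, and some were only just above it (lowest 11.03%). Among the 618 genes, values at or below 10% were thus reached first at S6 more often than at S5. Beside the 608 genes, the 10 had a higher level over S1 to S4, with a median of the mean FPKM of 109 against 40.7, and less in leaf, with a median of 2.28 FPKM against 10.5. Leaf was above S5 in 6 of the 10 genes and in 26 of the 608 (4.28%). The rule shapes this contrast, as it holds S5 low in the 10 genes, whereas the 608 are those over the late limit, with a median of 35.6 FPKM at S5. No trait of the genes is read from it. The higher early level follows in part from the rule too, as the limit on S5 is a share of that level.

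**Figure D4:**
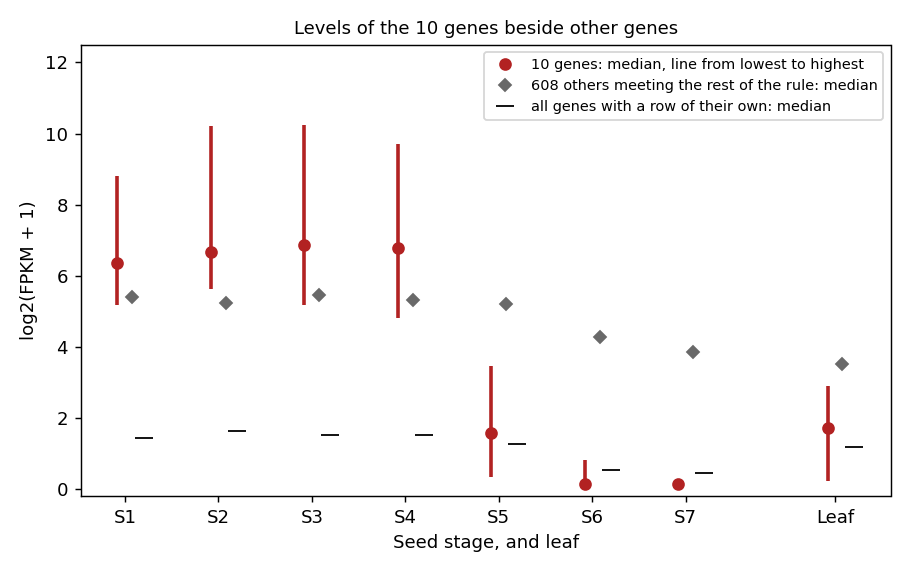
Levels as log2(FPKM + 1) (y axis) in the 7 seed stages and in leaf (x axis), as the median (circle) and the range (line) of the 10 genes, the median of the 608 genes that met the other limits (diamonds) and the median of all 23943 genes with a row of their own (dashes). At S5 the median of the 10 genes was 1.96 FPKM and that of the 608 was 35.6 FPKM, and at S6 the values were 0.0972 and 18.5 FPKM.

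Together the 10 genes held 0.137% of the summed FPKM of the library at S1, 0.294% at S2, 0.263% at S3 and 0.261% at S4 and 0.00138% at S5. Their sum was 1138 FPKM at S1, 2125 at S2, 2735 at S3 and 2055 at S4, and then 29.2 at S5, 1.83 at S6, 1.02 at S7 and 24.7 in leaf. The summed FPKM of all rows was itself higher at S5 (2.11e+06) than at S4 (787907). The share of the 10 genes therefore fell further between these stages than their own sum did. Ca_11701 alone gave 39.5% of the sum at S1, 56.0% at S2 and 43.8% at S3. Without it the sum was 688 FPKM at S1, 936 at S2, 1538 at S3 and 1622 at S4 and 27.8 at S5, so that S4 and not S3 was then the highest stage. That order rests on Ca_14772, which had 639 FPKM at S3 and 836 at S4, a wider step than that between these sums. At S4 it gave 40.7% of the sum of all 10 genes.

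The genes just within and just outside the limits were as follows. Of the 10 genes, Ca_01425 (9.81%) and Ca_14772 (8.87%) lay nearest to the limit of 10% between late and early values, and outside it were Ca_23286 (11.03%) and Ca_12345 (11.4%). Ca_23286 had 225 FPKM at S1, 455 at S2, 631 at S3 and 407 at S4, and then 24.8 at S5, 0.576 at S6, 0.714 at S7 and 1.93 in leaf, a course close to that of Ca_07179 but for its S5 value. Near the minimum, Ca_01575 (27.2 FPKM) and Ca_14124 (34.9 FPKM) lay inside, and Ca_16195 (16.8 FPKM) and Ca_02070 (16.0 FPKM) outside. Leaf was highest in Ca_16682 (6.42 FPKM) and Ca_01425 (4.38 FPKM) inside, and the only gene kept out by leaf alone was Ca_18870, with 63.2 FPKM in leaf and 21.4 at S4. The largest early value was at most 1.44 times the second largest inside (Ca_00603, then 1.31 in Ca_01575), and the only gene kept out by this limit alone was Ca_23535, with 30.2 FPKM at S1, 385 at S2, 5841 at S3 and 56.4 at S4, and listed at 0 at S5, S6 and S7. S2 was at most 1.16 times the larger of S3 and S4 inside (Ca_01425, then 1.10 in Ca_14124), and outside it was 2.36 times in Ca_07635 and 2.42 times in Ca_02360.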

How the data were processed

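RNA sequencing reads of Himchana 1 were quality-filtered by the authors (NGS QC Toolkit), mapped with TopHat to the annotated genome of chickpea, and summarised as FPKM with Cufflinks. The deposited FPKM values hold 1 merged value per stage for its 3 replicates, and how these were merged or scaled is not given in the sources used here. The depth is unknown, no interval or floor can be given, and the precision of low values cannot be told. A value of 0 may be a failed estimate. Of 35234 rows, 23943 had 1 gene identifier that occurred once and were used. Rows that join identifiers (1661), repeat one (2362) or have none (7268) were left out. Reads on overlapping or near-identical genes could have been shared by the counting, which was not examined.

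The genes, the rule and the lists were chosen with earlier results of these data known. All genes that met the rule are named, with the nearest genes outside each limit. Changes were calculated as log2 of FPKM + 1. Genes were counted at a 2-fold change. No test was possible with 1 value per stage. The counting was run on simulated rows that lay far inside or far outside the late limit. None was set to miss another limit, so this checks little of the rule. Process lists were read from the supplementary tables of the paper. The alternatives were pseudocounts of 0.1 and 0.01, 3 rescalings (same sum, median of ratios, upper quartile), other limits, other rows and, added after seeing the data, the rule without each stage and the opposite pattern under the rescalings. The software was Python 3.11.15 with pandas 2.3.3, numpy 2.4.6 and matplotlib 3.10.9.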

Additional observations from a re-analysis of the deposited data

How the results depend on the processing

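No paired analysis was possible because each stage has only 1 merged value, and for the same reason the planned fits without each replicate were not run. The number of genes that met the rule was 10 as deposited and with scaling by the median of ratios, 16 with the upper quartile and 49 with every library rescaled to the same sum, and all 10 genes were kept under each. All 3 rescalings lower S5 to S7 against S1 to S4, the median of ratios only slightly at S5. None of them could therefore take a gene out through the late limit, and keeping all 10 is no test of the fall. With the same sum, the median log2 change from S4 to S5 over the 8943 genes that reached 1 FPKM in all 8 libraries became -1.26. It was 0.03 as deposited, -0.02 with the median of ratios and -0.36 with the upper quartile. With a minimum of 10 FPKM the number was 21, with no minimum 324, with a late limit of 20% it was 24, and with a late limit of 5% it was 6 (without Ca_00603, Ca_01425, Ca_14772 and Ca_16682). A minimum of 40 FPKM, no limit on leaf, no evenness limits, summed rows and use of all rows gave 8 to 15 genes. Without stage S1 in the rule, which was chosen after seeing the data, it was 16, and without S5 it was 172, and each of these held all 10 genes. Without S2, S3, S4, S6 or S7 it was 8 to 14. The evenness limits then act on fewer stages, and Ca_11701 was lost without S2 or S3, Ca_14772 without S3 or S4, and Ca_01575 without S3. The median log2 change of the 10 genes from S4 to S5 was -4.63, and it was -5.39 and -5.55 with pseudocounts of 0.1 and 0.01, and -5.79 with the same sum, which is relative to the shift of all genes above. The median share of the largest late in the smallest early value was 3.76%, and 1.85% with the same sum. The numbers of genes with the opposite pattern and with the loss without evenness limits were 82 and 15 as deposited, 76 and 15 with the median of ratios, 68 and 22 with the upper quartile and 51 and 65 with the same sum, a comparison chosen after seeing the data. For single genes, all 50 values under these alternatives were negative, from -8.71 to -3.54. The rule fixes this sign in advance, so only the sizes are of use.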

Other observations

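Outside the genes with a row of their own, 2 rows had the same course. The row XLOC_026111, which carries no gene identifier, had 1492 FPKM at S1, 1793 at S2, 1093 at S3 and 380 at S4, and then 1.61 at S5, 0.244 at S6, 0.614 at S7 and 4.73 in leaf. Its level at S1 and S2 was above that of Ca_11701, the highest of the 10 genes there, and it was at its lowest early value at S4 like Ca_11701. The other was 1 of 2 rows of Ca_22428, with 36.0 FPKM at S1, 50.5 at S2, 27.1 at S3 and 39.0 at S4, and then 0.970 at S5, 0.0709 at S7 and 0.133 in leaf, and listed at 0 at S6. When the rows of a gene were summed, Ca_22428 no longer met the limit on S2, and Ca_26475 did meet the rule, with 154 FPKM at S1, 194 at S2, 99.4 at S3 and 107 at S4, and then 8.74 at S5, 0.405 at S6, 0.0997 at S7 and 14.4 in leaf. Ca_18393, also the sum of 2 rows, had its highest value at S3 (1592 FPKM) and 80.8 FPKM at S4, 6.78 at S5 and 0.307 at S7, was listed at 0 at S6, and was kept out as it peaks at S3. These rows and genes were named after their values were seen.

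A further 4 genes had the early level and the loss but were higher at S2 than at S3 and S4 by more than the rule allows. Ca_07635 had 374 FPKM at S1, 250 at S2, 81.8 at S3 and 106 at S4 and 0.635 at S5. Ca_14555 had 378 FPKM at S1, 395 at S2, 59.0 at S3 and 52.0 at S4 and 3.36 at S5. Ca_08516 had 92.3 FPKM at S1, 145 at S2, 58.2 at S3 and 38.9 at S4 and 1.88 at S5, and Ca_02360 had 173, 104, 43.2, 26.0 and 2.41 FPKM at these stages. In Ca_00153, 1 of the 2 genes with over 20 FPKM in leaf, the value was 580 FPKM at S1, 1120 at S2, 457 at S3 and 255 at S4, and then 14.0 at S5, 0.564 at S6, 1.18 at S7 and 87.4 in leaf.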
